A study of Homo sapiens with 16 samples.

Results

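The comparison described here is that of all-trans retinoic acid (ATRA) alone with its solvent DMSO in SKNO-1, a human acute myeloid leukaemia cell line that carries the RUNX1-RUNX1T1 fusion. It was made on all 60603 genes of the deposited count table, with 2 libraries in each of the 2 groups, which are 4 of the 16 libraries of the series. The DMSO group had received solvent only, and the ATRA group had received ATRA at 0.1 µM, both for 24 h. Both groups were grown in RPMI1640 with 10% fetal bovine serum, and, per the growth protocol in the labels, the SKNO-1 medium also held the cytokine GM-CSF at 10 ng/mL. The question was which genes and pathways retinoic acid alone moved in these cells, beyond its best known targets. The other SKNO-1 groups of the study had received Corin, a dual inhibitor of the histone demethylase LSD1 and of histone deacetylases 1 and 2 in the CoREST complex, alone or with ATRA (0.1 µM each, 24 h). The second line, U-937, is a monocyte-like leukaemia line that was treated in the same way, with no GM-CSF named in its protocol. Each line is a single cell line, and no label says whether replicates were separate cultures, so the p-values below measure the spread between these libraries only.

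Retinoic acid enters cells and binds nuclear receptors of the RAR family, which sit on DNA as partners of RXR receptors. Without ligand the pair recruits corepressors, and with ligand it exchanges them for coactivators and switches on target genes. The sites it binds are pairs of a short half-site in the same orientation, separated by a spacer of a few bases. Among the best known targets are genes that limit the signal itself, such as the hydroxylase CYP26A1, and in acute promyelocytic leukaemia the same ligand drives blasts to mature into granulocytes.

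Total RNA was sequenced. The authors' estimated gene counts, rounded to whole numbers, summed to 35925746 and 36877101 in the DMSO libraries and to 33678019 and 37817341 in the ATRA libraries. Levels are given in CPM, counts scaled to an equal library total, always as replicate 1 and replicate 2. The identity of the line was checked on listed markers. RUNX1T1, the partner gene of the fusion, was at 92.0 and 125 CPM with DMSO against 109.8 and 96.4 CPM with ATRA, and MPO, the peroxidase of myeloid granules, was at 3652 and 2619.9 CPM with DMSO against 3571 and 3902 CPM with ATRA. KIT, the stem cell factor receptor, was at 419 and 459 CPM with DMSO against 631 and 626 CPM with ATRA. CD34, which was also listed as a marker of the line, was near 0, with 18 counts in all with DMSO and 7 with ATRA. HOXA9 and HOXA10, which were listed as absent from this line, had 0 counts in all 4 libraries.

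The DMSO libraries differed from each other more than any other SKNO-1 pair did, and this bears on every result below. Over 9343 well-expressed genes (mean log2 CPM above 3), the SD of the log2 difference between replicates was 0.362 for DMSO, against 0.133 for ATRA, 0.109 for Corin and 0.112 for ATRA plus Corin. In the DMSO pair 9.92% of these genes differed by more than 1.5-fold. The difference followed the GC content of the transcripts, and across genes, which are no replicates of each other, Pearson's r was -0.782. In the fifth of genes with the least GC, replicate 2 was higher by a median of 0.23 on the log2 scale, and in the fifth with the most GC it was lower, with a median of -0.50. Once that trend was taken out the SD was 0.216, still the widest of the 4 pairs.

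**Figure D1:**
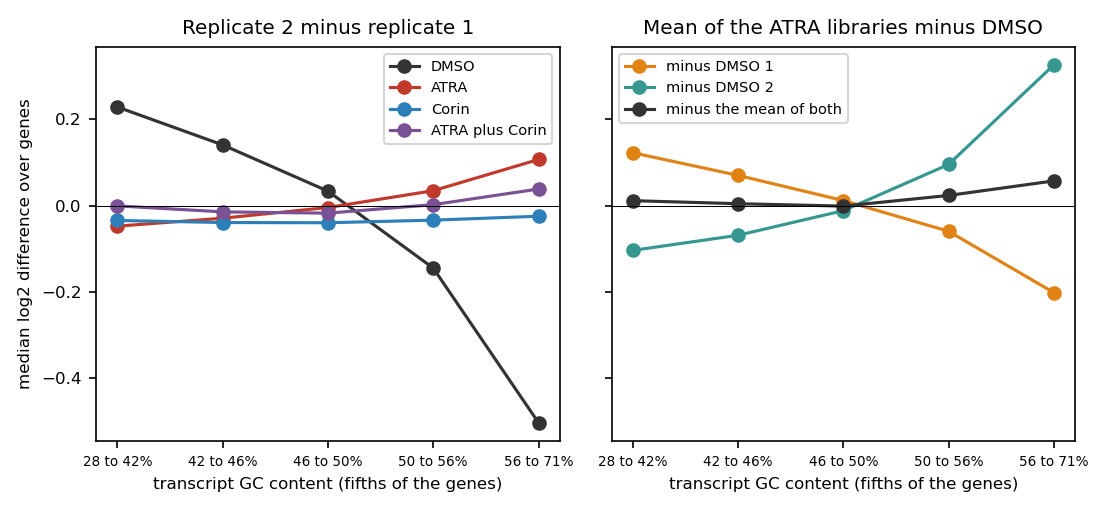
Median log2 difference in 5 equal groups of 9341 genes ordered by GC content, with replicate 2 minus replicate 1 of each SKNO-1 group on the left and the mean of the ATRA libraries minus each DMSO library or their mean on the right. The DMSO line falls from 0.23 to -0.50, while the medians of the other 3 pairs stay between -0.05 and 0.11. The ATRA libraries lie between the DMSO libraries, and against the mean of both the medians stay at or below 0.06.

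Histone genes and small nucleolar RNAs differed widely between the DMSO libraries. The 61 histone genes measured had a median difference of -1.03 (replicate 2 minus replicate 1, log2), and 32 of them were more than 1 log2 unit higher in replicate 1. The 51 small nucleolar RNAs had a median of -0.71, whereas the 18 small nuclear RNAs had a median of 0.23. Among genes with at least 10 CPM, the widest gaps toward replicate 1 were in HIST2H3C, a histone H3 gene, at 85.7 and 13.7 CPM, in COMMD3-BMI1, a read-through transcript, at 29.1 and 6.11 CPM, and in SCARNA2, a small Cajal body RNA, at 78.5 and 22.8 CPM. RMRP, an RNA of the RNase MRP complex that the table lists under 2 identifiers, and the noncoding AL355075.4 completed the 5. Toward replicate 2 the widest were the noncoding AL390728.6 (8.50 and 26.2 CPM), AC068547.1, Z83843.1, MZT1 and UBE2D1. The ATRA libraries fell between the DMSO values for HIST2H3C (25.6 and 57.7 CPM), and for 37.7% of 9341 genes both ATRA libraries lay between the 2 DMSO libraries. What set the DMSO libraries apart was not tested.

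With edgeR's quasi-likelihood test over all 8 SKNO-1 libraries, 1180 of 17479 genes tested (6.75%) passed an adjusted p of 0.05 and are called changed. Of these, 518 were higher with ATRA (2.96% of genes tested) and 662 lower (3.79%). In all 1180 both ATRA libraries lay beyond both DMSO libraries, which also holds, called or not, for 21.5% of genes tested on the higher side and 19.2% on the lower side. The change was at least 1 on the log2 scale for 506 genes, 232 higher and 274 lower. Protein-coding genes made up 449 of the higher and 607 of the lower genes, and long noncoding RNAs 55 and 43.

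The number of calls moved with the DMSO libraries. With DMSO replicate 1 left out it was 5338 and with DMSO replicate 2 left out 4524, and the genes called in those refits leaned with GC. Without DMSO replicate 1 the genes called higher had a median GC content of 57.4% and those called lower 44.3%, and without DMSO replicate 2 the order turned to 43.6% and 55.4%. Of 2555 genes called in both of these refits, 1707 moved the same way and 848 moved in opposite directions. In the fit with both DMSO libraries the medians were 50.4% for higher and 48.6% for lower genes, against 48.7% for all genes tested. Leaving out an ATRA library lowered the count to 582 (replicate 1) and 561 (replicate 2). Genes that were called in the same direction in the full fit, in each of the 4 fits that leave out 1 library and after removal of the GC trend are described as kept in every refit. They numbered 486 (2.78% of genes tested), 214 higher (1.22%) and 272 lower (1.56%). The label covers these refits only. It leaves out the other alternatives, such as the fit of only the 4 libraries compared, which called 239 genes. The fits without a DMSO library hold no spread of the DMSO pair, so a call kept there need not withstand that spread.

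The retinoid loop responded in several of its parts. DHRS3 (ENSG00000162496.9, chr1:12567910-12618210, minus strand), a reductase that turns retinal back into retinol, had 0 counts in both DMSO libraries and 3.18 and 3.70 CPM with ATRA. With the DMSO group set to a floor of 3 counts in all, it was at least 83.6-fold higher (adjusted p = 3.35e-05). CYP26A1 (ENSG00000095596.12, chr10:93073475-93077885, plus strand), the enzyme that hydroxylates retinoic acid for disposal, had 1 count in DMSO and 5.88 and 6.13 CPM with ATRA, a ratio of 436 (exact 95% interval for counting error only 77.9 to 17274, adjusted p = 2.71e-05). RDH10 (chromosome 8), which oxidises retinol toward retinoic acid, moved the other way, from 75.1 and 86.9 CPM to 33.5 and 32.4 CPM (log2 fold change -1.30, SE 0.0898, adjusted p = 0.000113). These were the 3 called genes among 13 tested on a list of 24 for retinoid metabolism and binding, 2 higher and 1 lower, and all 3 were kept in every refit, with 3 higher and 2 lower after removal of the GC trend. The 3 calls among 13 stand beside 6.75% of all genes tested. The list's median log2 fold change was 0.32, against 0.01 for all genes tested. The uptake receptor STRA6 and the esterifying enzyme LRAT had 0 counts in all 4 libraries, which allows up to 3 counts in each. CRABP1, a cytosolic retinoic acid carrier, was at 1.07 and 0.764 CPM with DMSO against 0.270 and 0.513 CPM with ATRA and did not pass (adjusted p = 0.102).

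Among 24 receptors and coregulators 23 were tested, 2 were called higher and 1 lower, and both higher genes were kept in every refit, with 5 higher and 1 lower after removal of the GC trend. The 3 calls stand beside 6.75% of all genes tested. RARB (ENSG00000077092.19, chr3:24687887-25597932, plus strand), the receptor that is itself a retinoic acid target, had 0 counts in DMSO and 18 and 24 counts with ATRA, which is at least 14.4-fold more (adjusted p = 0.00371). NCOA3, a coactivator of nuclear receptors, rose from 47.9 and 55.9 to 127 and 123 CPM (log2 fold change 1.26, SE 0.0790, adjusted p = 7.19e-05). RXRA, the common partner receptor, was lower, at 6.94 and 5.08 CPM with DMSO against 2.73 and 2.86 CPM with ATRA (-1.10, adjusted p = 0.00691 for the log2 fold change). RXRA lost its call without ATRA replicate 1 and without ATRA replicate 2 (adjusted p = 0.0556 to 0.0666). RARA, the receptor fused to PML in acute promyelocytic leukaemia, was at 9.75 and 6.40 CPM with DMSO against 9.93 and 11.6 CPM with ATRA and did not pass (adjusted p = 0.326). RARG was at 0.810 and 0.869 CPM with DMSO against 1.08 and 1.24 CPM with ATRA and did not pass either (adjusted p = 0.295). The antisense RNA RARA-AS1 rose from 0.231 and 0.237 to 1.02 and 1.41 CPM (adjusted p = 0.00248). It was chosen after its values were seen, and because the use of strand in counting is not stated its reads cannot be told apart from those of RARA.

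The promoters of RARB and CYP26A1 carry the classical retinoic acid response element, a direct repeat with a 5-base spacer. They are shown as the only 2 matches among the 373 genes higher with ATRA that had a promoter entry. Each line gives 30 bases around the repeat on hg38 (RefSeq promoters, GRCh38.p14), written along the plus strand with the repeat in capitals. CFLAR, an inhibitor of caspase-8 that was called lower, held the single match among the lower genes.
RARB, chr3:25428204-25428233: gggtagGGTTCACCGAAAGTTCActcgcat
CYP26A1, chr10:93073797-93073826: taaagaTGAACTTTGGGTGAACTaattgtc
CFLAR, chr2:201140267-201140296: ggtgatTGACCTTGGACTGAACCactattg

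In RARB the repeat reads on the gene's own strand and ends 36 bases before the start site. In CYP26A1 it reads on the opposite strand and ends 73 bases before the start site, and in CFLAR it lies over and just after the start. The search took any 2 half-sites 5 bases apart, each AGGTCA or AGTTCA or a form that starts with another G (GGGTCA or else GGTTCA), on both strands, in the 250 bases before and 50 after each start. It matched 31 of 35116 RefSeq promoters (0.0883%). Counted by gene, 8 of the 10657 genes tested that had a promoter entry held a match. Of the 518 genes higher with ATRA 373 had a promoter entry and 2 of them a match, and of the genes lower with ATRA 484 had an entry and 1 a match. A 2-base spacer matched 14 promoters (0.0399%), among them that of SEMA4A, a lower gene, and a 1-base spacer matched 46 (0.131%) and none of the called genes. Counted by gene, these spacers matched 5 and 23 of the 10657 genes tested. A match is a description of the letters, and no match says nothing about more distant sites.

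The largest rises reached beyond the retinoid genes, to surface proteins, enzymes and secreted factors (the plot of CPM by library). HIC1 (ENSG00000177374.13, chr17:2054154-2063241), a transcriptional repressor, went from 0.231 and 0.158 to 28.1 and 32.4 CPM (log2 fold change 7.27, SE 0.19, adjusted p = 1.68e-06). THBS1 (ENSG00000137801.10, chr15:39581079-39599466), the secreted adhesive glycoprotein thrombospondin-1, was at 2.26 and 2.45 CPM with DMSO against 110.2 and 117 CPM with ATRA (log2 fold change 5.59, SE 0.0891, adjusted p = 1.08e-07). In both genes replicates lay close together and the groups were far apart. VSIR (chr10:71747556-71773520), the immune checkpoint VISTA, was at 1.47 and 0.658 CPM with DMSO against 29.1 and 32.0 CPM with ATRA (log2 fold change 4.85, adjusted p = 3.35e-05), and ADAMTS14 (chr10:70672506-70762441), a procollagen protease, at 2.31 and 1.63 CPM with DMSO against 36.9 and 43.0 CPM with ATRA (4.35, adjusted p = 7.26e-06). VSIR shows the gap of the DMSO pair, but both of its DMSO values were far below both ATRA values.

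Smaller transcripts rose from a few counts. SELP (chr1:169588849-169630193), the adhesion receptor P-selectin, had 3 counts in both DMSO libraries together and 258 in both ATRA libraries, a ratio of 88.7 (exact 95% interval 30.02 to 433). DGKI (chr7:137381037-137847092), a diacylglycerol kinase, had 2 and 372 counts, a ratio of 192 (interval 52.7 to 1590.1). CCL24 (chr7:75810825-75823356), a chemokine that attracts eosinophils, rose from 0.116 and 0.0527 to 6.03 and 6.59 CPM (log2 fold change 6.19, adjusted p = 1.61e-05). ABCB1 (chr7:87503017-87713323), the drug efflux pump P-glycoprotein, was at 0.0578 and 0.105 CPM with DMSO against 4.14 and 3.999 CPM with ATRA (5.56, adjusted p = 0.000179). ADH1C (chr4:99336497-99352746), an alcohol dehydrogenase that can oxidise retinol and has close paralogs with which it can share reads, was at 0.116 and 0.211 CPM with DMSO against 7.50 and 7.30 CPM with ATRA (5.46, adjusted p = 1.70e-05). FBP1 (chr9:94603133-94640249), the fructose bisphosphatase of gluconeogenesis, was at 0.289 and 0.237 CPM with DMSO against 5.22 and 4.81 CPM with ATRA (4.24, adjusted p = 2.09e-05). All 12 of the largest rises were kept in every refit.

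**Figure D2:**
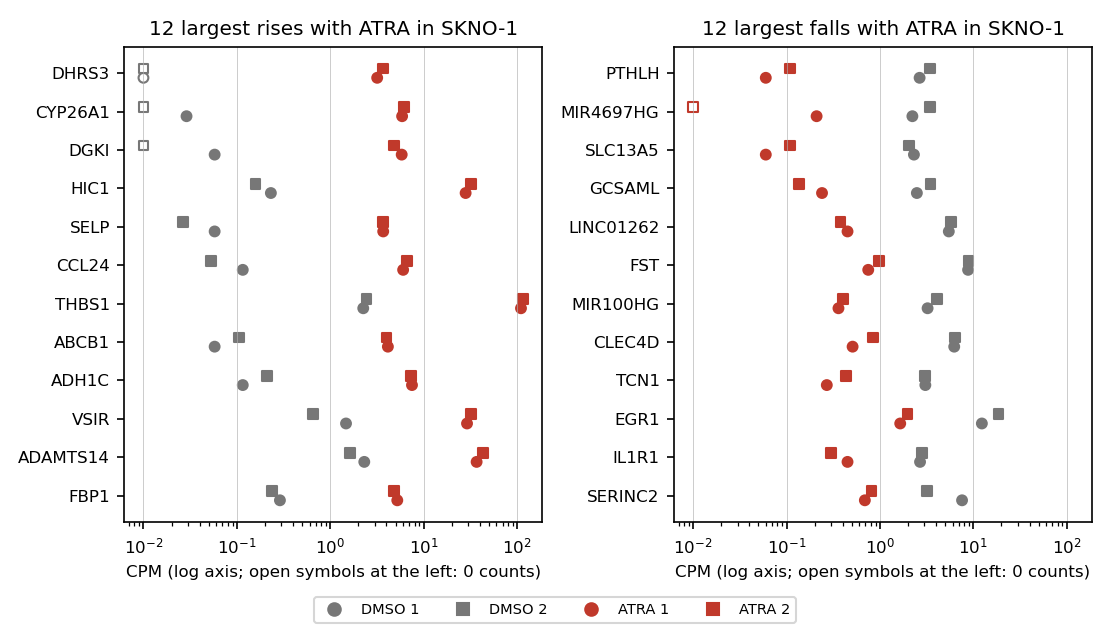
CPM (log axis) in each DMSO and ATRA library of SKNO-1 for the 12 largest rises and the 12 largest falls, with circles for replicate 1, squares for replicate 2 and open symbols at the left for 0 counts. In all 24 genes the ATRA libraries lie beyond both DMSO libraries, THBS1 reaches the highest level with ATRA, at 117 CPM, and SERINC2 has the widest DMSO pair among the falls, at 7.58 and 3.21 CPM.

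A list of 24 known retinoic acid targets in myeloid cells had 20 genes tested, of which 10 were called higher and 3 lower, and 8 and 3 of these were kept in every refit. Of all genes tested 2.96% were called higher and 3.79% lower. The list's median log2 fold change was 0.46, against 0.01 for all genes. The higher members besides HIC1 included PLAAT4, a tumour suppressor first found as retinoic acid inducible, at 0.289 and 0.263 CPM with DMSO against 4.35 and 5.03 CPM with ATRA (log2 fold change 4.07, adjusted p = 3.08e-05). TGM2, the tissue transglutaminase, was at 2.69 and 2.11 CPM with DMSO against 14.7 and 15.8 CPM with ATRA (2.67, adjusted p = 5.31e-05), and IRF1, an interferon-responsive transcription factor, at 25.3 and 20.1 CPM with DMSO against 72.7 and 75.6 CPM with ATRA (1.71, adjusted p = 6.98e-05). PRAM1, an adaptor of myeloid cells, rose from 0.607 and 0.685 to 3.54 and 4.16 CPM, and CD38, an NAD-consuming surface enzyme, from 216 and 242 to 562 and 543 CPM. The rest of the higher members were ASB2, ID1, ID2 and UBA7. ID2 and UBA7 lost their calls without ATRA replicate 1 and without ATRA replicate 2 (adjusted p = 0.165 to 0.204).

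The 3 lower members of that list are known as growth-limiting or death-promoting genes. TNFSF10, which encodes the death ligand TRAIL, was at 34.0 and 36.1 CPM with DMSO against 7.98 and 6.86 CPM with ATRA (log2 fold change -2.24, SE 0.0943, adjusted p = 1.36e-05). BTG2, an antiproliferative factor, was at 17.1 and 15.3 CPM with DMSO against 3.99 and 4.76 CPM with ATRA (-1.89, adjusted p = 0.000112), and CDKN1A, the cyclin-dependent kinase inhibitor p21, at 4.74 and 4.79 CPM with DMSO against 2.34 and 1.84 CPM with ATRA (-1.19, adjusted p = 0.00367). All 3 were kept in every refit. CEBPE, a granulocyte transcription factor and textbook retinoic acid target, was at 16.6 and 8.53 CPM with DMSO against 13.5 and 14.6 CPM with ATRA and did not pass (adjusted p = 0.837), with DMSO values on both sides of the ATRA values.

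The largest falls took in secreted factors, receptors and noncoding RNAs. PTHLH (ENSG00000087494.15, chr12:27958084-27972733), the parathyroid hormone-like hormone, had 222 counts in both DMSO libraries together and 6 in both ATRA libraries (log2 fold change -5.10, SE 0.41, adjusted p = 0.000228). SLC13A5 (chr17:6684719-6713377), a citrate transporter, had 158 and 6 counts (-4.62, adjusted p = 7.67e-05). FST (chr5:53480626-53487134), the activin-binding protein follistatin, was at 8.79 and 8.90 CPM with DMSO against 0.750 and 0.973 CPM with ATRA, and CLEC4D (chr12:8509475-8522366), a C-type lectin receptor of myeloid cells, at 6.25 and 6.35 CPM with DMSO against 0.510 and 0.838 CPM with ATRA. In FST and CLEC4D the DMSO replicates nearly coincided. TCN1 (chr11:59852800-59866489), a vitamin B12-binding protein of neutrophil granules, was at 3.07 and 3.03 CPM with DMSO against 0.270 and 0.432 CPM with ATRA (log2 fold change -3.09, adjusted p = 0.000106). IL1R1 (chr2:102064544-102179874), the signalling receptor of interleukin-1, was at 2.69 and 2.84 CPM with DMSO against 0.450 and 0.297 CPM with ATRA (-2.89, adjusted p = 0.000126). EGR1 (chr5:138465479-138469303), an immediate early transcription factor, fell from 12.3 and 18.6 to 1.65 and 1.97 CPM (-3.09, adjusted p = 0.000138). GCSAML, MIR4697HG, LINC01262 and MIR100HG were the other large falls, with log2 fold changes of -3.99, -4.78, -3.75 and -3.24. SERINC2 (-2.83) was the exception to the refits. SERINC2 lost its call without ATRA replicate 1 and without ATRA replicate 2 (adjusted p = 0.0897 to 0.107).

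MIR100HG (chr11:122028325-122556721, minus strand) is the host transcript of miR-100, let-7a and miR-125b, and it fell from 3.24 and 4.05 to 0.360 and 0.405 CPM (log2 fold change -3.24, SE 0.21, adjusted p = 7.85e-05). MIR181A1HG (chr1:198777861-198937471, minus strand), host of miR-181a and miR-181b, was lower as well, at 34.2 and 49.1 CPM with DMSO against 22.5 and 22.6 CPM with ATRA (log2 fold change -0.89, adjusted p = 0.0121). Of 11 mature sequences that lie inside these hosts on the same strand, 5 of the 5p arms are shown because the fall concerns the transcripts they are cut from. They are given 5′ to 3′ from RefSeq (GRCh38.p14), with the seed, bases 2 to 8, in capitals.
miR-100-5p: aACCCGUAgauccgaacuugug
let-7a-5p: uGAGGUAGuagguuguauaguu
miR-125b-5p: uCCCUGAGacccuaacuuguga
miR-181a-5p: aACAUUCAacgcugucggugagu
miR-181b-5p: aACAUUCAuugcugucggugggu

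The miR-181 pair shares a seed, and the 3 microRNAs shown from MIR100HG have 3 different seeds. The mature microRNAs were not measured in these libraries. MIR181A2HG, a second host gene named for miR-181a, was at 0.492 and 1.05 CPM with DMSO against 0.720 and 1.05 CPM with ATRA. It did not pass (adjusted p = 0.875). Of 20 genes tested that are named as microRNA hosts, 5 were called lower and 0 higher, a group that was put together after the values were seen. Of all genes tested 3.79% were called lower and 2.96% higher. MIR29B2CHG was at 47.0 and 51.5 CPM with DMSO against 34.9 and 37.7 CPM with ATRA and MIR22HG at 1.36 and 1.37 CPM with DMSO against 0.690 and 0.622 CPM with ATRA. MIR181A1HG, MIR29B2CHG and MIR22HG lost their calls without ATRA replicate 1 and without ATRA replicate 2 (adjusted p = 0.0935 to 0.220). MIR17HG, host of the miR-17 to miR-92 cluster, was at 45.9 and 62.7 CPM with DMSO against 59.2 and 58.9 CPM with ATRA and did not pass (adjusted p = 0.725).

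Among abundant transcripts the shifts were smaller in fold and larger in CPM. APLP2, an amyloid precursor-like membrane protein, was at 1572 and 1503 CPM with DMSO against 2936 and 3017 CPM with ATRA (log2 fold change 0.95, SE 0.0556, adjusted p = 5.14e-05). SRGN, the proteoglycan that packs granule contents, rose from 332 and 390.2 to 893 and 897 CPM, and LBR, the lamin B receptor, from 373 and 446 to 844 and 842 CPM. NCOA4, the receptor for autophagy of ferritin, was at 848 and 897 CPM with DMSO against 1341 and 1334 CPM with ATRA, and PGD, an enzyme of the pentose phosphate pathway, at 578 and 505 CPM with DMSO against 912 and 942 CPM with ATRA. These 5 were kept in every refit. On the lower side TENT5C, a cytoplasmic poly(A) polymerase, was at 273 and 286 CPM with DMSO against 104 and 99.5 CPM with ATRA (log2 fold change -1.46, SE 0.0639, adjusted p = 1.61e-05) and was kept in every refit. CALR and HSP90B1, chaperones of the endoplasmic reticulum, were at 2959 and 2539.5 CPM with DMSO against 2082 and 2179 CPM with ATRA and at 1097 and 1135 CPM with DMSO against 940.3 and 929.7 CPM with ATRA. CDK6, a kinase of the G1 phase, was at 1357 and 1786 CPM with DMSO against 1121 and 1064 CPM with ATRA, and STXBP5, a syntaxin-binding protein, at 559 and 679 CPM with DMSO against 421 and 385 CPM with ATRA. CALR, HSP90B1 and CDK6 lost their calls without ATRA replicate 1 and without ATRA replicate 2 (adjusted p = 0.0830 to 0.175). STXBP5 lost its call without ATRA replicate 2 (adjusted p = 0.0543).

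Calls were then counted in 31 lists of genes chosen for this tissue and treatment (the plot of calls by list). The counts are read against the 6.75% of all genes, and a list can hold genes that passed the low-count filter only through another group of the line. Most lists held calls in both directions. All 5 calls on the list of chemokines and their receptors were higher, whereas all 4 on the apoptosis list and both on the MHC class II list were lower. With no filter on low counts, and without DMSO replicate 2, 1 chemokine gene was called lower, and without DMSO replicate 1 there was 1 higher MHC class II gene. The apoptosis list had 2 higher and 5 lower genes with the GC trend removed, 4 and 8 without DMSO replicate 1, and 4 and 10 without DMSO replicate 2. In the fit of all 8 libraries no call was made among the proliferation genes, the mitochondrially encoded genes, the nuclear oxidative phosphorylation genes or the HOX genes and cofactors, and DESeq2 called none of them either. Of these 4 lists 2, 2, 0 and 0 genes had an unadjusted p under 0.05. The list counts moved with the DMSO libraries as the whole count did. They were more than 1.5 times as large in 24 of 31 lists without DMSO replicate 1 and in 20 without DMSO replicate 2, and fell by that factor in 9 and 12 lists without ATRA replicate 1 or 2. With the GC trend removed they were more than 1.5 times as large in 14 lists. Calls kept in every refit can still be lost in the fit of only the 4 libraries compared. There the interferon-stimulated list had 0 higher and 2 lower genes, and the TGF-beta, activin and BMP list 1 and 1. The list of retinoid metabolism and binding kept its 2 higher and 1 lower genes in that fit. The direction could turn with the DMSO library used: of the 24 oxidative phosphorylation genes 11 were called without DMSO replicate 1, all higher, and 18 without DMSO replicate 2, all lower. Of the 13 mitochondrially encoded genes 4 and 2 were called without DMSO replicate 1 or 2, 1 with the GC trend removed and 7 with no filter on low counts, all lower. Among the 24 proliferation genes 5 were called with the GC trend removed, 4 higher and 1 lower, and without DMSO replicate 1 or 2 the calls numbered 13, with 7 higher, and 9, with 2 higher.

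**Figure D3:**
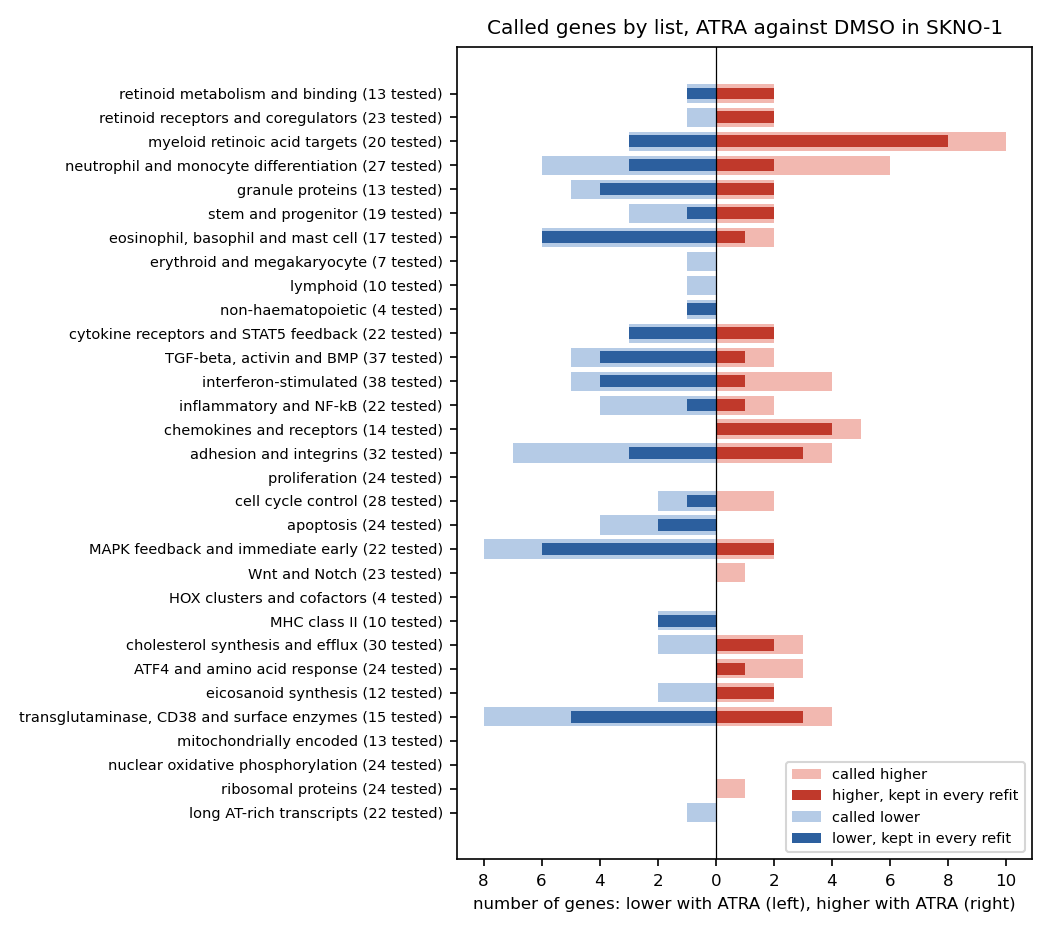
Number of genes called lower (bars to the left) and higher (bars to the right) with ATRA in each of 31 lists, with the number of members tested in brackets. Light bars are all calls and dark bars the calls kept in every refit. The longest bars are the 10 higher genes among the myeloid retinoic acid targets and the 8 lower genes each among MAPK feedback and immediate early genes and among transglutaminases, CD38 and surface enzymes.

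Differentiation markers of neutrophils and monocytes did not move as a block. Of 27 tested among 31, 6 were called higher and 6 lower, and 2 and 3 of these were kept in every refit. The fit of only the 4 libraries compared, which that label leaves out, called 0 higher and 2 lower. CD68, a lysosomal glycoprotein of macrophages, was at 6.65 and 4.77 CPM with DMSO against 14.4 and 13.9 CPM with ATRA (log2 fold change 1.31, SE 0.15, adjusted p = 0.00143). ITGAM, the CD11b integrin used as a marker of granulocytic maturation, was at 0.434 and 0.316 CPM with DMSO against 0.960 and 0.865 CPM with ATRA, under 1 CPM in every library. CEBPA, CEBPB and CSF1R were called higher too. The lower genes included CD86, a costimulatory ligand, at 0.925 and 0.974 CPM with DMSO against 0.150 and 0.108 CPM with ATRA (-2.86, adjusted p = 0.000659), FCGR2A, a low-affinity IgG receptor, at 88.3 and 86.8 CPM with DMSO against 40.6 and 41.4 CPM with ATRA (-1.09, adjusted p = 3.45e-05), and MNDA, a nuclear antigen of myeloid cells, at 5.18 and 5.82 CPM with DMSO against 2.9999 and 2.89 CPM with ATRA (-0.90, adjusted p = 0.00352). FCER1G, FCGR1A and LYZ were also lower. ITGAM and FCGR1A lost their calls without ATRA replicate 1 (adjusted p = 0.0569 to 0.0700). CSF1R, LYZ and FCER1G lost their calls without ATRA replicate 2 (adjusted p = 0.0816 to 0.157). CEBPA and CEBPB lost their calls without ATRA replicate 1 and without ATRA replicate 2 (adjusted p = 0.112 to 0.361). CEBPB was not called with the GC trend removed (adjusted p = 0.131). CD14, S100A12 and LILRB4 had 0 counts in all 4 libraries. SPI1, the transcription factor PU.1, was at 25.1 and 14.1 CPM with DMSO against 18.3 and 20.7 CPM with ATRA and ITGB2 at 4.74 and 4.05 CPM with DMSO against 5.85 and 5.76 CPM with ATRA, and neither passed (adjusted p = 0.996 and 0.114). The list's summed level was 587 and 456 CPM with DMSO and 458 and 483 CPM with ATRA.

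Granule genes were split between the primary granule protease PRTN3 and SRGN on one side and several others on the other. Of 13 tested among 21, 2 were called higher and 5 lower, and 2 and 4 of these were kept in every refit. PRTN3, proteinase 3, was at 10.7 and 5.19 CPM with DMSO against 27.4 and 32.2 CPM with ATRA (log2 fold change 1.91, SE 0.28, adjusted p = 0.00451). CEACAM6, a carcinoembryonic antigen-related adhesion protein, was at 15.01 and 15.1 CPM with DMSO against 2.73 and 2.92 CPM with ATRA (-2.41, adjusted p = 3.35e-05), and CST7, the protease inhibitor cystatin F, at 153 and 116 CPM with DMSO against 35.9 and 35.7 CPM with ATRA (-1.91, adjusted p = 0.000113). RNASE2, a ribonuclease of eosinophil granules, was at 137 and 128 CPM with DMSO against 71.7 and 72.7 CPM with ATRA, and HGF, hepatocyte growth factor, at 54.7 and 64.1 CPM with DMSO against 26.7 and 26.3 CPM with ATRA. CTSG, cathepsin G, was at 12.6 and 9.08 CPM with DMSO against 5.9997 and 6.32 CPM with ATRA. CTSG lost its call without ATRA replicate 1 and without ATRA replicate 2 (adjusted p = 0.133 to 0.169). MPO and ELANE, neutrophil elastase, did not pass (adjusted p = 0.393 and 0.858). The late granule genes LTF, LCN2, MMP8, MMP9 and CEACAM8 had 0 counts in all 4 libraries.

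More markers of eosinophils, basophils and mast cells were called lower than higher. Of 17 tested among 20, 2 were called higher and 6 lower, and 1 and 6 of these were kept in every refit. The fit of only the 4 libraries compared, which that label leaves out, called 1 higher and 2 lower. The median log2 fold change was -0.54, and the list's summed level was 224 and 204 CPM with DMSO and 182 and 184 CPM with ATRA. CPA3, the carboxypeptidase of mast cells, was at 9.28 and 10.0 CPM with DMSO against 1.35 and 1.41 CPM with ATRA (log2 fold change -2.80, SE 0.14, adjusted p = 2.88e-05). FCER1A, a chain of the IgE receptor, was at 0.839 and 0.790 CPM with DMSO against 0.0900 and 0.0270 CPM with ATRA (-3.75, adjusted p = 0.000937), and HDC, which makes histamine, at 0.752 and 0.685 CPM with DMSO against 0.11999 and 0.162 CPM with ATRA (-2.31, adjusted p = 0.00470). MS4A3 was at 9.11 and 9.24 CPM with DMSO against 3.90 and 4.05 CPM with ATRA, ALOX5, the 5-lipoxygenase, at 15.1 and 11.7 CPM with DMSO against 6.75 and 6.67 CPM with ATRA, and IL5RA, the interleukin-5 receptor, at 88.6 and 94.0 CPM with DMSO against 59.5 and 60.1 CPM with ATRA. CLC, the Charcot-Leyden crystal protein of eosinophils, went against the others, at 21.8 and 21.7 CPM with DMSO against 57.9 and 56.8 CPM with ATRA (1.40, adjusted p = 3.73e-05), as did the eotaxin receptor CCR3, with 2 counts in both DMSO libraries together and 39 in both ATRA libraries, a ratio of 20.1 (exact 95% interval 5.21 to 172). CCR3 lost its call without ATRA replicate 1 and without ATRA replicate 2 (adjusted p = 0.0631 to 0.0816). In bulk RNA fewer cells of a type and less RNA per cell cannot be told apart.

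On the list of stem and progenitor genes 19 of 24 were tested, 2 were called higher and 3 lower, and 2 and 1 of these were kept in every refit. CYTL1, a cytokine-like protein of CD34+ cells, was at 70.4 and 80.0 CPM with DMSO against 18.1 and 16.9 CPM with ATRA (log2 fold change -2.10, SE 0.0889, adjusted p = 1.36e-05), and GATA2, a transcription factor of progenitors and mast cells, at 33.5 and 22.7 CPM with DMSO against 12.9 and 12.8 CPM with ATRA (-1.13, adjusted p = 0.00495). KIT was higher (0.52, adjusted p = 0.00175), as was the surface glycoprotein CD200, at 5.84 and 6.503 CPM with DMSO against 13.7 and 13.7 CPM with ATRA (1.15, adjusted p = 0.000857). TAL1 was called lower (-0.50, adjusted p = 0.00461). GATA2 lost its call without ATRA replicate 1 and without ATRA replicate 2 (adjusted p = 0.0504 to 0.0531). TAL1 lost its call without ATRA replicate 1 (adjusted p = 0.0503). Lists for other lineages held few expressed genes. Of 25 erythroid and megakaryocyte genes 7 were tested and 1, ITGA2B, was lower (HBB and PF4 had 0 counts). Of 20 lymphoid genes 10 were tested and 1, NKG7, was lower, with CD3E and MS4A1 at 0 counts. Of 14 genes of non-haematopoietic cells 4 were tested and 1, KDR, was lower, with COL1A1, EPCAM and CDH5 at 0 counts. The summed levels were 2422 and 2553 CPM with DMSO and 2398 and 2380.0 CPM with ATRA for the erythroid list, 249 and 215 CPM with DMSO and 231 and 237 CPM with ATRA for the lymphoid list and 14.9 and 18.0 CPM with DMSO and 11.1 and 10.7 CPM with ATRA for the non-haematopoietic list. ITGA2B lost its call without ATRA replicate 1 and without ATRA replicate 2 (adjusted p = 0.1198 to 0.144). NKG7 lost its call without ATRA replicate 1 (adjusted p = 0.162).

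Cytokine signalling genes, listed because the cells grow on GM-CSF, had 22 members tested, of which 2 were called higher and 3 lower, and 2 and 3 of these were kept in every refit. IL2RA, the alpha chain of the interleukin-2 receptor and a STAT5 target, was at 23.3 and 23.0 CPM with DMSO against 59.6 and 57.3 CPM with ATRA (log2 fold change 1.34, SE 0.0717, adjusted p = 3.35e-05), and SOCS3, a feedback inhibitor of cytokine receptors, at 31.6 and 25.1 CPM with DMSO against 67.1 and 74.8 CPM with ATRA (1.32, adjusted p = 0.000521). OSM, the cytokine oncostatin M, was at 17.2 and 10.3 CPM with DMSO against 3.27 and 3.13 CPM with ATRA (-2.10, adjusted p = 0.00152). STAT3 was at 179 and 170.0 CPM with DMSO against 110.0 and 118 CPM with ATRA and IL6R at 8.97 and 8.32 CPM with DMSO against 4.86 and 4.78 CPM with ATRA. Among 37 tested genes of the TGF-beta, activin and BMP pathways 2 were called higher and 5 lower, and 1 and 4 of these were kept in every refit. LRRC32, which docks latent TGF-beta on the cell surface, had 0 counts in DMSO and 41 and 67 with ATRA, at least 37.1-fold higher. Besides FST the lower genes were LTBP1, a latent TGF-beta binding protein (1.76 and 2.00 CPM with DMSO against 0.600 and 0.459 CPM with ATRA), the ligand BMP6 (5.15 and 5.06 CPM with DMSO against 2.94 and 2.76 CPM with ATRA) and the receptors ACVR1B and TGFBR2. ENG, the coreceptor endoglin, was higher, at 12.6 and 10.9 CPM with DMSO against 17.6 and 18.7 CPM with ATRA. ENG and TGFBR2 lost their calls without ATRA replicate 1 and without ATRA replicate 2 (adjusted p = 0.0755 to 0.167).

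Of 38 interferon-stimulated genes tested, 4 were called higher and 5 lower, and 1 and 4 of these were kept in every refit, with 9 higher and 6 lower after removal of the GC trend. GBP2, a guanylate-binding protein, was at 24.1 and 26.4 CPM with DMSO against 7.20 and 6.05 CPM with ATRA (log2 fold change -1.93, SE 0.11, adjusted p = 3.88e-05), and RSAD2, the antiviral protein viperin, at 18.0 and 18.2 CPM with DMSO against 7.98 and 8.89 CPM with ATRA (-1.10, adjusted p = 0.000238). XAF1 and HERC5 were lower as well and IFI6, IFIT3 and PSMB9 higher, with log2 fold changes of -0.88, -0.38, 0.61, 0.69 and 1.29, while OAS3, an oligoadenylate synthetase, was higher, at 0.434 and 0.316 CPM with DMSO against 1.59 and 2.03 CPM with ATRA (2.27, adjusted p = 0.00151). Of 22 inflammatory and NF-kB genes tested, 2 were called higher and 4 lower, and 1 and 1 of these were kept in every refit, with 5 higher and 5 lower after removal of the GC trend. TNF was at 1.13 and 1.00 CPM with DMSO against 0.210 and 0.108 CPM with ATRA (-2.73, adjusted p = 0.00314) and PTGS2, the inducible cyclooxygenase, at 2.37 and 2.63 CPM with DMSO against 0.930 and 0.784 CPM with ATRA (-1.55, adjusted p = 0.00487), whereas ICAM1, an adhesion ligand, rose from 19.4 and 15.2 to 37.6 and 40.05 CPM (1.17, adjusted p = 0.000931). CXCL8 was at 17.0 and 17.5 CPM with DMSO against 12.03 and 10.4 CPM with ATRA. TNFAIP3, an inhibitor of NF-kB, was higher (0.46) and the antiapoptotic BIRC3 lower (-0.50). PTGS2, CXCL8 and HERC5 lost their calls without ATRA replicate 2 (adjusted p = 0.0543 to 0.184). TNFAIP3, BIRC3, IFI6, IFIT3 and PSMB9 lost their calls without ATRA replicate 1 and without ATRA replicate 2 (adjusted p = 0.114 to 0.229).

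Among 14 chemokines and receptors tested, 5 were called higher, 0 lower, and 4 were kept in every refit. CXCR5, a receptor best known from follicular lymphocytes, was at 1.13 and 0.737 CPM with DMSO against 7.11 and 8.76 CPM with ATRA (log2 fold change 3.09, SE 0.20, adjusted p = 9.09e-05), and CXCR2, the neutrophil receptor for CXCL8, at 3.15 and 4.27 CPM with DMSO against 8.58 and 8.32 CPM with ATRA (1.18, adjusted p = 0.00349). CCR2 had 1 count in both DMSO libraries together and 17 in both ATRA libraries, a ratio of 17.5 (exact 95% interval 2.75 to 733). The ligand CCL24 is described above. CCR2 lost its call without ATRA replicate 1 and without ATRA replicate 2 (adjusted p = 0.116 to 0.125).

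Adhesion genes were called in both directions. Of 32 tested, 4 were called higher and 7 lower, and 3 and 3 of these were kept in every refit. ITGA5, a subunit of the fibronectin receptor, rose from 192 and 154 to 443 and 460.3 CPM (log2 fold change 1.39, SE 0.0977, adjusted p = 0.000124), and ITGB7 was at 1.10 and 0.685 CPM with DMSO against 3.30 and 3.22 CPM with ATRA (1.87, adjusted p = 0.00112). ITGB8, a subunit of the integrin that activates latent TGF-beta, was at 1.68 and 2.37 CPM with DMSO against 0.240 and 0.378 CPM with ATRA (-2.69, adjusted p = 0.00180), and CD44, the hyaluronan receptor, at 270.2 and 327 CPM with DMSO against 186 and 182 CPM with ATRA (-0.70, adjusted p = 0.00211). ITGAL, the leukocyte integrin CD11a, had 16 counts in both DMSO libraries together and 2 in both ATRA libraries. SELPLG, the ligand of P-selectin, was higher (0.95), and ITGA6, ITGA9, CD63 and CD99 were lower (-0.40, -0.83, -0.29 and -0.46). ITGAL, SELPLG, ITGA6, CD63 and CD99 lost their calls without ATRA replicate 1 and without ATRA replicate 2 (adjusted p = 0.0670 to 0.197).

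Surface enzymes and antigens held the largest share of calls of any list. The lists were chosen with earlier results of these data known, so this rank is a description. Of 15 transglutaminases, surface enzymes and related antigens tested, 4 were called higher and 8 lower, and 3 and 5 of these were kept in every refit. THBD, the anticoagulant receptor thrombomodulin, was at 0.174 and 0.158 CPM with DMSO against 2.19 and 2.32 CPM with ATRA (3.74, adjusted p = 5.54e-05), and CD93 at 2.83 and 3.79 CPM with DMSO against 14.8 and 13.3 CPM with ATRA (2.08, adjusted p = 0.000111). F13A1, the transglutaminase of clotting, was at 1.36 and 1.47 CPM with DMSO against 0.330 and 0.297 CPM with ATRA (-2.17, adjusted p = 0.000917), and ENTPD1, the ectonucleotidase CD39, at 13.4 and 14.1 CPM with DMSO against 5.37 and 4.95 CPM with ATRA (-1.42, adjusted p = 0.000168). CD52, a small glycoprotein of leukocytes, was at 16.5 and 15.4 CPM with DMSO against 10.0 and 10.3 CPM with ATRA, and ENPP2, the lysophospholipase autotaxin, at 74.4 and 77.1 CPM with DMSO against 40.7 and 41.2 CPM with ATRA. TGM5 and BST1 were higher, with log2 fold changes of 1.14 and 0.31. CD33, the complement inhibitor CD59 and the peptidases DPP4 and ANPEP were lower, with log2 fold changes of -0.42, -0.59, -0.70 and -0.67. BST1 lost its call without ATRA replicate 1 and without ATRA replicate 2 (adjusted p = 0.232 to 0.330). DPP4, ANPEP and CD33 lost their calls without ATRA replicate 1 (adjusted p = 0.0522 to 0.0871).

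More immediate early and feedback genes of the MAP kinase pathway were called lower than higher. Of 22 tested among 25, 2 were called higher and 8 lower, and 2 and 6 of these were kept in every refit, and the median log2 fold change was -0.51. FOS, the partner of JUN in AP-1, was at 9.92 and 8.98 CPM with DMSO against 2.52 and 2.35 CPM with ATRA (log2 fold change -1.95, SE 0.15, adjusted p = 0.000186), with EGR1 described above. The MAP kinase phosphatases divided: DUSP10 was at 7.43 and 7.398 CPM with DMSO against 1.53 and 2.51 CPM with ATRA (-1.87, adjusted p = 0.00175), DUSP1 at 1.71 and 1.74 CPM with DMSO against 0.630 and 0.649 CPM with ATRA (-1.42, adjusted p = 0.00371), and DUSP4 at 3.21 and 3.19 CPM with DMSO against 14.9 and 15.2 CPM with ATRA (2.23, adjusted p = 3.35e-05), the last being higher. SPRY1, a Sprouty inhibitor of receptor signalling, was higher too, at 12.1 and 11.1 CPM with DMSO against 26.4 and 27.3 CPM with ATRA (1.21, adjusted p = 0.000157). FOSL2, FOSB and the ETS factors ETV4 and ETV5 were lower, with log2 fold changes of -0.71, -1.65, -1.08 and -0.69. FOSB lost its call without ATRA replicate 1 (adjusted p = 0.0511). ETV4 lost its call without ATRA replicate 1 and without ATRA replicate 2 (adjusted p = 0.0844 to 0.0848). JUN was at 2.23 and 1.97 CPM with DMSO against 1.44 and 1.16 CPM with ATRA and did not pass (adjusted p = 0.0794).

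No shift was called in proliferation genes, 0 of 24 tested, with 2 at an unadjusted p under 0.05 and a median log2 fold change of 0.01. MKI67, a marker of cycling cells, was at 560.5 and 755 CPM with DMSO against 573 and 568 CPM with ATRA, and CDK1, the kinase of mitosis, at 131 and 158 CPM with DMSO against 161 and 158 CPM with ATRA, with overlapping groups in MKI67 and nearly so in CDK1. The proliferation count was 5 with the GC trend removed, 13 without DMSO replicate 1 and 9 without DMSO replicate 2. Of 28 genes of cell cycle control 2 were called higher and 2 lower, and 0 and 1 of these were kept in every refit, with 4 higher and 5 lower after removal of the GC trend. CDKN2D, the inhibitor p19, was at 2.31 and 1.71 CPM with DMSO against 3.48 and 3.59 CPM with ATRA, and BTG1 at 18.6 and 19.9 CPM with DMSO against 27.3 and 24.8 CPM with ATRA. MYC was at 447 and 383 CPM with DMSO against 378 and 414 CPM with ATRA and did not pass (adjusted p = 0.768). Of 24 apoptosis genes tested, 0 were called higher and 4 lower, and 0 and 2 of these were kept in every refit, with 2 higher and 5 lower after removal of the GC trend. TNFRSF10B, a receptor for TRAIL, was at 10.4 and 9.29 CPM with DMSO against 4.77 and 4.81 CPM with ATRA (log2 fold change -1.04, SE 0.10, adjusted p = 0.000646), and BCL2, the survival factor, at 101 and 125 CPM with DMSO against 65.9 and 67.5 CPM with ATRA (-0.76, adjusted p = 0.00295). CFLAR was lower too, with a log2 fold change of -0.39. CDKN2D, BTG1 and CFLAR lost their calls without ATRA replicate 1 and without ATRA replicate 2 (adjusted p = 0.112 to 0.291).

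Among genes of cholesterol synthesis and efflux, ABCA1, which exports cholesterol, rose from 7.52 and 11.3 to 75.6 and 76.1 CPM (log2 fold change 3.01, SE 0.16, adjusted p = 3.30e-05), and NR1H3, the oxysterol receptor LXR-alpha, was at 3.21 and 2.90 CPM with DMSO against 6.24 and 6.27 CPM with ATRA (1.03, adjusted p = 0.00210). SCD, a fatty acid desaturase, was higher and the synthesis enzymes HMGCS1 and CYP51A1 were lower, with log2 fold changes of 0.42, -0.28 and -0.30. In that list 30 were tested, 3 were called higher and 2 lower, and 2 and 0 of these were kept in every refit, with 7 higher and 7 lower after removal of the GC trend. For eicosanoids 12 were tested, 2 were called higher and 2 lower, and 2 and 0 of these were kept in every refit. ALOX5AP, which presents arachidonic acid to 5-lipoxygenase, was at 11.3 and 9.87 CPM with DMSO against 81.7 and 83.4 CPM with ATRA (log2 fold change 2.96, SE 0.0830, adjusted p = 2.29e-06), while ALOX5 itself was lower, as given above. LTB4R, the leukotriene B4 receptor, was at 5.09 and 5.42 CPM with DMSO against 10.9 and 10.2 CPM with ATRA (1.00, adjusted p = 0.00238). The phospholipase PLA2G4A and the prostaglandin receptor PTGER4 were lower (-0.39 and -0.56). Of 24 genes of the ATF4 and amino acid response 3 were called higher, DDIT4, ASNS and PSAT1, and 0 lower, with DDIT4 at 2.81 and 2.76 CPM with DMSO against 6.93 and 7.81 CPM with ATRA. The ATF4 list had 7 higher and 0 lower genes with the GC trend removed. SCD, HMGCS1, CYP51A1, PSAT1 and PLA2G4A lost their calls without ATRA replicate 1 and without ATRA replicate 2 (adjusted p = 0.0608 to 0.255). ASNS lost its call without ATRA replicate 2 (adjusted p = 0.0957). PTGER4 lost its call without ATRA replicate 1 (adjusted p = 0.0504).

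In the fit of all 8 libraries the called genes of the MHC class II list were lower. CIITA, the master regulator of MHC class II, was at 21.4 and 19.2 CPM with DMSO against 11.8 and 12.2 CPM with ATRA (log2 fold change -0.75, SE 0.0905, adjusted p = 0.00199), and HLA-DRA at 33.0 and 29.5 CPM with DMSO against 20.6 and 18.9 CPM with ATRA (-0.66, adjusted p = 0.00243), 2 of 10 tested, with CD74 at 112 and 88.8 CPM with DMSO against 92.5 and 103 CPM with ATRA, which did not pass (adjusted p = 0.914). Of the 24 ribosomal protein genes 1, RPS16, was called higher, and of 22 long AT-rich transcripts, a list kept as a gauge of library composition, 1, DST, was called lower, with 1 higher and 5 lower after removal of the GC trend. RPS16 and DST lost their calls without ATRA replicate 2 (adjusted p = 0.0627 to 0.0788). FZD7, a Wnt receptor, was the single call among 23 Wnt and Notch genes, at 6.30 and 7.61 CPM with DMSO against 10.4 and 11.3 CPM with ATRA, with 2 higher and 3 lower after removal of the GC trend. FZD7 lost its call without ATRA replicate 1 and without ATRA replicate 2 (adjusted p = 0.116 to 0.217).

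Some called genes were neighbours. There were 16 runs of at least 3 called genes that moved the same way and were adjacent among the genes tested, a description chosen after the values were seen. On chromosome 2 the kinase gene MAP4K4 and the receptor genes IL1R1, IL1RL1 and IL18R1 were lower together, at log2 fold changes of -0.50, -2.89, -2.33 and -2.53. IL18R1, a chain of the interleukin-18 receptor, was at 1.68 and 1.82 CPM with DMSO against 0.390 and 0.216 CPM with ATRA. On chromosome 1 the complement regulators CD55, CR2 and CR1 were higher together. CR1, which binds C3b, was at 17.4 and 21.04 CPM with DMSO against 39.7 and 40.5 CPM with ATRA (log2 fold change 1.06, SE 0.0922, adjusted p = 0.000387), and CR2 had 0 counts in DMSO and 8 and 14 with ATRA. On chromosome 22 the cytidine deaminase genes APOBEC3D, APOBEC3F and APOBEC3G, which are close paralogs and can share reads, were higher, with APOBEC3G at 9.28 and 7.69 CPM with DMSO against 17.5 and 18.1 CPM with ATRA. On chromosome 10 VIM, the intermediate filament vimentin, was at 74.4 and 79.1 CPM with DMSO against 30.4 and 32.2 CPM with ATRA (-1.29, adjusted p = 3.30e-05). Its neighbours VIM-AS1, ST8SIA6 and HACD1 were all lower. Because the use of strand in counting is not stated, reads of the antisense VIM-AS1 cannot be told apart from those of VIM. SLC2A3, a glucose transporter on chromosome 12, was at 109 and 104 CPM with DMSO against 43.0 and 46.2 CPM with ATRA, next to its close paralog SLC2A14 and GDF3, both lower. IL1RL1, CD55, APOBEC3D and APOBEC3F lost their calls without ATRA replicate 1 and without ATRA replicate 2 (adjusted p = 0.0937 to 0.318). CR2 and VIM-AS1 lost their calls without ATRA replicate 2 (adjusted p = 0.0619 to 0.0674).

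ATRA was also compared in cells that all had Corin, in 4 libraries that share none with the comparison above. There 1821 genes of 17479 passed (10.4%), with 843 up (4.82%) and 978 down (5.60%). Of the 518 genes higher with ATRA alone 488 had the same sign against Corin and 326 were called the same way, with 4 called the opposite way. Of the 662 lower genes 593 had the same sign and 345 were called the same way, with 10 called the opposite way. The 2 comparisons were fitted with 1 estimate of the spread, which takes in the wide DMSO pair. With only the 4 libraries that had Corin, 7440 genes were called. The counts of shared calls thus depend on that estimate, and a gene that did not pass against Corin was not shown to be unchanged there. CYP26A1, DHRS3 and HIC1 rose against Corin as they did against DMSO. CYP26A1 and DHRS3 reached higher CPM with both agents than with ATRA alone. CYP26A1 was at 0.0285 and 0 CPM with Corin against 19.8 and 21.7 CPM with both (adjusted p = 6.55e-06), DHRS3 at 0.114 and 0.0881 CPM with Corin against 29.1 and 29.6 CPM with both (adjusted p = 5.76e-06) and HIC1 at 0.228 and 0.264 CPM with Corin against 30.5 and 32.9 CPM with both (log2 fold change 6.99, adjusted p = 2.74e-06). Among the genes that were called against DMSO and did not pass against Corin were RXRA (-0.09, adjusted p = 0.725), FOS (-0.49, adjusted p = 0.0660) and PTHLH (-1.05, adjusted p = 0.117). CD38 turned, being higher against DMSO (1.27) and lower against Corin (-0.38, adjusted p = 0.0104). Whether the response differed between the backgrounds was not tested for these genes.

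**Figure D4:**
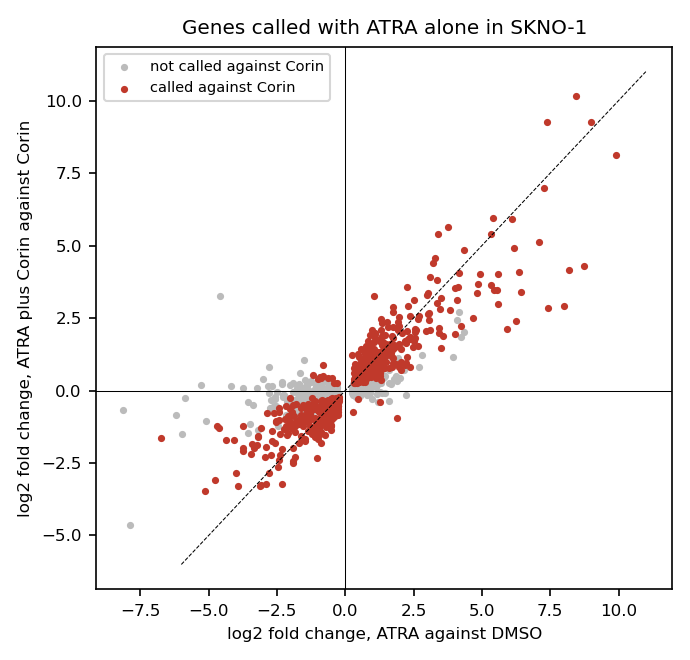
Each of the 1180 genes called with ATRA alone, with its log2 fold change against DMSO (horizontal) and the log2 fold change of ATRA plus Corin against Corin (vertical). Red points were called in both comparisons and grey points in the first only, the dashed line marks equal values, and 488 of 518 genes on the right and 593 of 662 on the left have the same sign on both axes.

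The response was last set against that of U-937 in a fit of all 16 libraries, where 7083 of 19872 genes were called with ATRA in U-937 (35.6%), 3619 higher (18.2%) and 3464 lower (17.4%). Of the genes higher in SKNO-1, 342 of 518 were called higher in U-937 and 38 lower. Of the genes lower in SKNO-1, 194 of 662 were called lower in U-937 and 143 higher. The difference of the responses itself was called for 3849 genes (19.4%), 2100 with a higher response in U-937 (10.6%) and 1749 with a lower one (8.80%). Scaled by library totals alone the split was 1725 and 2358. These included 203 of the 518 and 356 of the 662, which were picked by the SKNO-1 response that also enters this difference. CD86 was lower in SKNO-1 (-2.86) and higher in U-937 (3.73), and GBP2 (-1.93 and 3.35), CDKN1A (-1.19 and 2.53) and BTG2 (-1.89 and 1.76) likewise. EGR1 was lower in both lines (-3.09 and -2.59). DHRS3 reached 94.4 and 110.4 CPM with ATRA in U-937. CYP26A1 was not called in U-937 (adjusted p = 0.404). With ATRA, RARB was at 0.540 and 0.649 CPM in SKNO-1 (18 and 24 counts) and far higher in U-937, at 20.4 and 19.9 CPM. The lines also differed in medium, as only SKNO-1 had GM-CSF, so line and medium cannot be told apart.

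**Figure D5:**
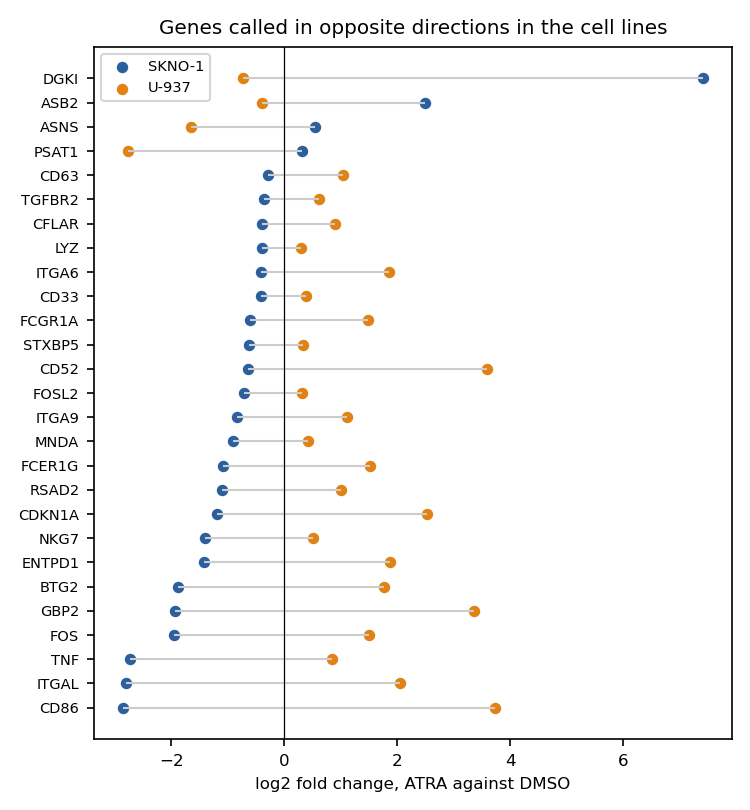
Log2 fold change of ATRA against DMSO in SKNO-1 (blue) and in U-937 (orange) for 27 named genes that were called in opposite directions in the lines. Of these, 23 were lower in SKNO-1 and higher in U-937, from CD63 to CD86, and 4 were higher in SKNO-1 and lower in U-937 (DGKI, ASB2, ASNS and PSAT1).

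In the authors' deposited table for this comparison 622 genes had an adjusted p under 0.05, 278 of them higher and 344 lower. Of those 622 genes in the authors' deposited table, 612 were also called here in the same direction.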

How the data were processed

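Total RNA of 16 libraries was sequenced. Trimmomatic, STAR, RSEM and DESeq2 are named, per the submitters' processing notes, with the hg38 build. Versions, the annotation release and the strand setting are not given in the sources used here. The deposited files hold RSEM expected counts per gene, estimates that need not be whole (20.4% of positive values were not, tolerance 1e-06 counts), and TPM, which the authors' RSEM run scaled by effective length. The authors' deposited table for ATRA gives log2 fold changes and adjusted p-values. Gene positions are those of GENCODE 44, matched by gene ID.

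Expected counts were rounded, which changed a library total by at most 74.52 counts. Genes were filtered with filterByExpr, scaled by TMM and tested with edgeR 4.0.16 (limma 3.58.1, R 4.3.3, glmQLFit and glmQLFTest, robust) over the 8 SKNO-1 libraries. The residual degrees of freedom were 4, and p-values were adjusted by Benjamini-Hochberg over all genes tested, with a threshold of 0.05. CPM are counts over the TMM-scaled total. SE is the log2 fold change over the root of F. Fitted fold changes of genes near 0 counts depend on the prior count, so these are given as ratios or as bounds that set an empty group to 3 counts in all. Such intervals cover counting error only. The line comparison used all 16 libraries with an interaction term. In the fits the GC trend was removed by a loess offset per library (span 0.3). For the SD of a replicate pair it was removed from the difference by medians interpolated along GC content. DESeq2 1.42.0 was an alternative. The scripts were tested on simulated data.

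Named genes were the 12 largest rises and falls of at least 2 CPM in the higher group, the 5 largest shifts in CPM each way, the 5 widest genes of the DMSO pair each way, and up to 4 called and the defining members of each list. Further called members were added after their values were seen. The comparison and the lists were chosen with earlier results of these data known. A few genes counted in the lists are not reported here singly. Alternatives were other scalings, no filter, DESeq2, fewer libraries, a replicate block, GC removal and leaving out each library.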

Additional observations from a re-analysis of the deposited data

Results flagged for a closer look

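For 42 of the named genes the response to ATRA itself differed between the cell lines, by the interaction term of edgeR's quasi-likelihood test over all 16 libraries (adjusted p from 3.36e-12 to 0.0105). The values below are log2 responses in U-937 minus those in SKNO-1. The genes were named for their response in SKNO-1, which enters the difference, so their number is a description.

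Called in opposite directions were 27 genes, 23 of them lower with ATRA in SKNO-1 and higher in U-937. Among surface proteins these were CD86 (6.62), ITGAL (4.89), CD52 (4.28), ENTPD1 (3.33), FCER1G (2.65), ITGA6 (2.29), FCGR1A (2.13), ITGA9 (1.98), NKG7 (1.94), CD63 (1.37), TGFBR2 (1.01) and CD33 (0.85). The others were BTG2 (3.69), CDKN1A (3.76), CFLAR (1.34), FOS (3.50), FOSL2 (1.05), GBP2 (5.32), LYZ (0.73), MNDA (1.37), RSAD2 (2.14), STXBP5 (0.99) and TNF (3.62). CD86 had the largest of these differences, and its libraries in SKNO-1 were all under 1 CPM. Higher in SKNO-1 and lower in U-937 were 4 genes, ASB2 (-2.85), ASNS (-2.16), DGKI (-8.10) and PSAT1 (-3.05).

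The other 15 were not called in opposite directions. Of those that were higher in SKNO-1, the differences were ADAMTS14 (-3.58), APLP2 (1.41), CCL24 (3.80), CYP26A1 (-9.93), DHRS3 (-4.84), PGD (1.30), THBS1 (-2.93) and VSIR (-1.40). For CYP26A1, DHRS3 and DGKI the SKNO-1 part rests on at most 2 counts with DMSO and depends on the prior count of the fit. So does the U-937 part for CCL24, at 0.0302 and 0 CPM with DMSO, for CYP26A1, at no more than 0.0655 CPM in any of its 4 libraries there, and for PTHLH, at no more than 0.0604 CPM. The difference for ITGAL rests on 2 counts with ATRA in SKNO-1. Of those that were lower in SKNO-1, the differences were CDK6 (-0.62), CLEC4D (2.48), FST (3.58), IL1R1 (2.56), PTHLH (5.91), SERINC2 (3.38) and TENT5C (-0.87).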

How the results depend on the processing

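Of 1180 calls with ATRA, the count was 1963 without a filter on low counts, 239 with only the 4 libraries compared, 2420 with the GC trend removed and 561 to 5338 when single libraries were left out. Calls of at least 1 on the log2 scale (506) numbered 187 with only the libraries compared and 353 to 875 with 1 library left out. Against Corin, 1821 calls became 4232 without a filter, 7440 with only those 4 libraries, 2864 with the GC trend removed and 395 to 466 with 1 library left out. The difference between the lines (3849 calls) stayed within 1.5 times under every alternative run, from 2806 to 5475. The SD of the DMSO pair, 0.362, was 0.216 with the GC trend removed. Fewer genes or libraries enter some of these fits, and the cause of the other shifts was not tested.

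The correlation across genes of replicate 2 minus replicate 1 was -0.486 between ATRA and DMSO, -0.107 between ATRA plus Corin and Corin, -0.176 between ATRA plus Corin and DMSO, -0.188 between ATRA and Corin, 0.237 between ATRA plus Corin and ATRA and 0.0659 between Corin and DMSO. The groups compared thus gave negative values, and the numbers were not taken to pair the libraries. With a replicate block the calls numbered 904 with ATRA and 1066 against Corin, and the block together with GC removal gave 2246 with ATRA. A block with crossed numbers, added after seeing the data, gave 1119 and 1106. Also added were GC removal with 1 library left out, which gave 1335 and 1364 calls without an ATRA library, 4015 without DMSO replicate 1 and 3777 without DMSO replicate 2, and 781 calls of at least 1 on the log2 scale without DMSO replicate 1.

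Of 168 genes followed singly, none turned direction. Calls were lost for 93 with only the compared libraries, 47 and 48 without ATRA replicate 1 or 2, 20 with the replicate block, 12 with library totals, 4 with DESeq2 and 0 without either DMSO library. With a DMSO library left out, the spread of the DMSO pair does not enter the fit. That no call was lost there thus cannot show that the calls withstand that spread. Depth limits the genes with few counts: 12 genes called higher had 0 counts with DMSO, and 16 had 1 to 3.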

Other observations

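Several transcripts outside the lists also passed the test with ATRA. PRF1, the pore-forming protein perforin, had 0 counts with DMSO and 9 and 8 with ATRA. SGPL1, which breaks down sphingosine phosphate, was at 15.2 and 16.5 CPM with DMSO against 22.9 and 24.0 CPM with ATRA. Both lie beside ADAMTS14 on chromosome 10, and all 3 were higher. PDE4B, a cyclic AMP phosphodiesterase, was higher as well, at 25.7 and 27.2 CPM with DMSO against 58.7 and 59.1 CPM with ATRA, as were SGIP1 and TCTEX1D1, the next genes among those tested, in a run that spans 986.5 kb. RGS18, a regulator of G protein signalling in blood cells, was lower, at 38.6 and 50.9 CPM with DMSO against 31.9 and 29.7 CPM with ATRA, as were PTGS2 and PLA2G4A, the preceding genes among those tested, in a run that spans 5514 kb. These genes were chosen after their values were seen. PRF1, SGPL1 and RGS18 lost their calls without ATRA replicate 1 and without ATRA replicate 2 (adjusted p = 0.0507 to 0.225).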
